A study of Mus musculus with 19 samples.

Results

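The comparison described here is that of kidneys from mice given zalfermin with kidneys from mice given vehicle, where both had undergone the same injury. Members were taken by their sample labels: the 8 libraries whose treatment label is the drug code 0194-0499 and the 7 whose label is vehicle, 15 of the 19 libraries of the series. The other 4 libraries, of healthy kidneys, enter only the estimate of gene-wise spread and a reference range. The series design calls the injury UUO, which commonly stands for unilateral ureteral obstruction, whereas the sample labels of the same 15 libraries give the condition MASH. The drug code is taken to be the zalfermin of the design. Healthy kidneys are labelled untreated in the sample labels and vehicle in the design. The tissue of all groups is labelled kidney. Not given in the sources used here were the strain, genotype, sex and age of the mice, the dose, the length of treatment and the time of tissue collection. No label ties each library to an animal of its own, and p-values therefore describe the spread among these samples alone, part of which may be technical.

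Zalfermin is a drug modelled on FGF21 that stays long in the body. The natural FGF21 is a hormone of energy balance that acts on cells carrying an FGF receptor, chiefly FGFR1, together with the co-receptor beta-klotho, encoded by Klb. FGF21 is best known for its effects on fat, liver and the brain. Obstruction of the ureter dilates and injures the tubules, draws in immune cells and makes fibroblasts lay down collagen-rich matrix, which is why it is used as a model of kidney fibrosis.

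Libraries held 12209122 to 14844103 counts over genes, and 16026 of the 55536 listed genes passed the count filter and were tested. Levels are CPM, counts scaled to a common library total after TMM correction, where TMM is edgeR's scaling for differences in composition. Markers of proximal tubule, thick limb, distal tubule, collecting duct and podocytes were found in all 15 libraries (Umod, of the thick limb, at 2767 CPM or more), while the muscle gene Ckm was at 0 in 13 of 15 and the adrenal gene Cyp11b1 at 0 in 9 of 15. Vehicle replicate 6 stood apart from the other 14 libraries. It had 19788 genes with a count, against 21374 to 22216 in the other vehicle and 21333 to 22028 in the zalfermin libraries. Its mitochondrially encoded share was 1.10% of counts, against 3.09% to 4.21% and 2.95% to 4.25%. Summed over 8 red blood cell genes it held 567 CPM, against 68.4 to 124 CPM in the other vehicle and 66.7 to 219 CPM in the zalfermin libraries. The median correlation of its log2 CPM with its own group was 0.950, against 0.981 to 0.986 in the other vehicle libraries. The count of calls over all genes is therefore given with and without it, as are the counts of some lists and the fold changes of some of the main genes.

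In a principal component analysis of the 15 libraries, vehicle replicate 6 alone defined the first component (28.9% of variance), at 90.3 where the rest lay between -16.4 and 8.20. The second component (12.4%) placed the other 6 vehicle libraries at 12.5 to 22.8 and the 8 zalfermin libraries at -25.6 to 0.209. Without that library the groups separated on the first component (17.2%), with vehicle at -22.8 to -12.7 and zalfermin at 0.125 to 25.9. Zalfermin replicate 6 was the treated library nearest to the vehicle libraries on that component.

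**Figure D1:**
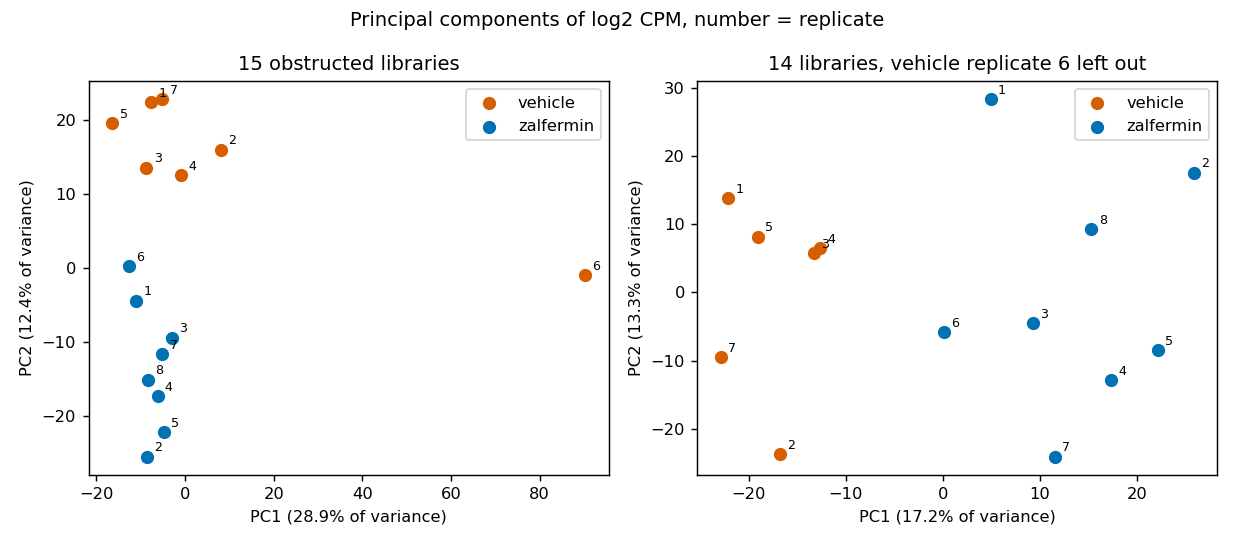
Scores of the libraries on the first and second principal components of log2 CPM, for 15 libraries (left) and for 14 without vehicle replicate 6 (right); each point is a library, numbered by replicate, with vehicle in orange and zalfermin in blue. Vehicle replicate 6 sits alone at 90.3 on the left, and the groups do not overlap along the horizontal axis on the right.

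With zalfermin, 16 of 31 listed matrix genes and several proximal tubule genes that androgens are known to control fell. Some genes of the glucocorticoid response and of glucuronidation rose, and clock genes changed in both directions. A gene is called here when its adjusted p (Benjamini-Hochberg over all tested genes) in edgeR's quasi-likelihood test is under 0.05. Of 16026 genes 290 were called (1.81%), 139 higher (0.867%) and 151 lower (0.942%) in zalfermin libraries. Changes were mostly small, with a median size of 0.55 on the log2 scale among the called genes. At least 1.5-fold changes numbered 59 higher and 74 lower, and at least 2-fold changes 25 and 23. Over all tested genes the median was 0.01. Groups did not overlap in CPM in 97 of all tested genes (0.605%), 78 of which were called.

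Leaving out vehicle replicate 6 raised the number of calls to 517 of 15974 (3.24%), 242 higher (1.51%) and 275 lower (1.72%). Of the 290 genes 276 remained, all with the same sign, and 241 genes were gained. All 24 of the largest rises and falls named by rule were called without it. The standard error (SE) given here is the size of the log2 fold change divided by the square root of the test's F statistic. Its median over tested genes fell from 0.12 to 0.10. The count was also moved by over 1.5 times by vehicle replicate 2 (179 genes without it), vehicle replicate 7 (157), and zalfermin replicates 2 (153), 4 (162) and 5 (155), while 120 genes, 60 in each direction, were called whichever of the 15 libraries was left out. Under upper-quartile scaling the split was 105 higher and 191 lower.

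**Figure D2:**
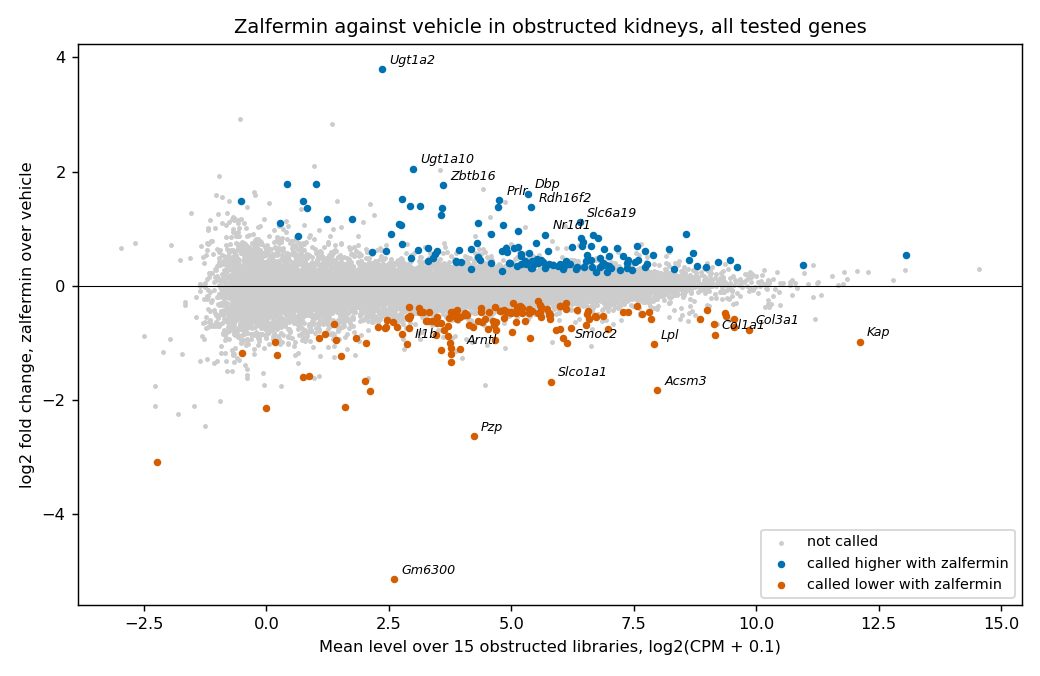
Log2 fold change of zalfermin over vehicle against the mean level over 15 obstructed libraries, log2(CPM + 0.1), for each tested gene, with called genes in blue (higher) and orange (lower). Ugt1a2 is the highest called gene at 3.79 and Gm6300 the lowest at -5.14, and the abundant matrix genes Col1a1 and Col3a1 lie below 0.

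Below, the level of a gene in a group is given as its lowest, median and highest CPM, over 7 vehicle and 8 zalfermin libraries. Fold changes come from the edgeR fit and are on the log2 scale unless a fold is named. Each count of called list members is to be read against all tested genes, of which 0.867% rose and 0.942% fell.

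Among the 39 gene lists, that for matrix held the most called falls. Of 31 tested genes for fibrillar collagens and other matrix 16 fell and 0 rose, against 0.942% of all genes that fell, with a median of -0.49. None of the 31 reached an unadjusted p under 0.05 in the other direction, and DESeq2 and voom also called 0 higher. Over all genes DESeq2 called 3.76% (1.62% higher, 2.13% lower) and voom 7.16% (3.13% higher, 4.03% lower). Col1a2, a chain of type I collagen, the main collagen of scar, was at 776, 924 and 1276 CPM with vehicle and 473, 549 and 689.8 CPM with zalfermin. Every treated library lay below every vehicle library, a 1.66-fold difference (log2 fold change -0.73, SE 0.11, adjusted p = 0.00122). The partner chain Col1a1 (chr11:94936224-94953042, plus strand) was at 560.0, 648 and 1244 CPM and 298, 428 and 498 CPM. Its groups did not overlap either, and vehicle replicate 7 was far above the other vehicle libraries, with 799 CPM the next below it (log2 fold change -0.86, SE 0.14, adjusted p = 0.00301). Col3a1, the chain of type III collagen that is laid down beside it, was at 915, 1034 and 1703 CPM and 505, 668 and 869 CPM, again without overlap (log2 fold change -0.77, SE 0.14, adjusted p = 0.00543). Fn1, fibronectin, on which collagen fibres assemble, was at 478, 566 and 678 CPM and 293, 398 and 460.5 CPM without overlap (log2 fold change -0.58, SE 0.11, adjusted p = 0.00689). Without vehicle replicate 6 the log2 fold changes were -0.76 for Col1a2, -0.86 for Col1a1, -0.81 for Col3a1 and -0.58 for Fn1, all still called. All 4 stayed far above the healthy kidneys, in which Col1a1 was at 21.8 to 27.6 CPM and Fn1 at 25.3 to 30.9 CPM.

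Genes for other parts of the matrix fell as well. Eln, elastin, was at 26.7, 30.7 and 49.1 CPM and 11.2, 18.2 and 24.6 CPM (log2 fold change -0.94, SE 0.16, adjusted p = 0.00296), and Sparc, a collagen-binding glycoprotein, at 796, 848 and 1165 CPM and 520.3, 598 and 691 CPM (log2 fold change -0.59, SE 0.10, adjusted p = 0.00296). In both the highest treated library was below the lowest vehicle library. The chains of type VI collagen fell, with log2 fold changes of -0.69 for Col6a1, -0.74 for Col6a2 and -0.45 for Col6a3. Falls among the enzyme genes of the list were those of the membrane protease Mmp14 (-0.55, adjusted p = 0.00356), the gelatinase Mmp2 (-0.57, adjusted p = 0.0360) and the collagen cross-linking Loxl2 (-0.41, adjusted p = 0.0301). The remaining falls were Col5a1 (-0.57), Col15a1 (-0.58), Fbn1 (-0.53) and Bgn (-0.47). Of these smaller falls, those of Col6a3, Mmp2, Loxl2, Col15a1, Fbn1 and Bgn were each lost in 7 to 11 of the 15 leave-one-out fits. Not called were Postn (-0.65, adjusted p = 0.321), Timp1 (-0.49, adjusted p = 0.500) and Lox (-0.35, adjusted p = 0.400), and the one positive value was that of Ccn2 (0.24, adjusted p = 0.500). Without vehicle replicate 6, 20 of the 31 fell with a median of -0.55, the gains being Col5a2, Dcn, Col4a1 and Col4a2. The count was 10 without vehicle replicate 5 or 7 or zalfermin replicate 2, 4 or 5.

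The largest falls by the naming rule included 4 more matrix genes. Mfap4 (chr11:61485431-61488900, plus strand), which encodes a microfibril-associated protein, was at 14.01, 17.6 and 25.4 CPM and 4.12, 7.86 and 13.1 CPM (log2 fold change -1.20, SE 0.18, adjusted p = 0.00122). Smoc2, a calcium-binding matrix protein, was at 73.1, 91.9 and 139.6 CPM and 31.8, 47.7 and 61.4 CPM (log2 fold change -1.005, SE 0.17, adjusted p = 0.00304). Dpt, dermatopontin, which binds decorin and collagen, was at 14.1, 17.8 and 25.02 CPM and 5.62, 9.06 and 10.9 CPM (log2 fold change -0.998, SE 0.15, adjusted p = 0.00122). The groups of these 3 genes did not overlap. Col6a4, a further type VI chain, was at 7.996, 16.6 and 27.4 CPM and 4.002, 8.49 and 13.8 CPM with overlapping groups (log2 fold change -1.09, SE 0.24, adjusted p = 0.0185). The largest adjusted p on leaving out a library was 0.00460 for Mfap4, 0.0101 for Smoc2, 0.00413 for Dpt and 0.0484 for Col6a4. Mfap4 overlaps Mapk7 on the other strand, whose log2 fold change was -0.13 (adjusted p = 0.599).

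**Figure D3:**
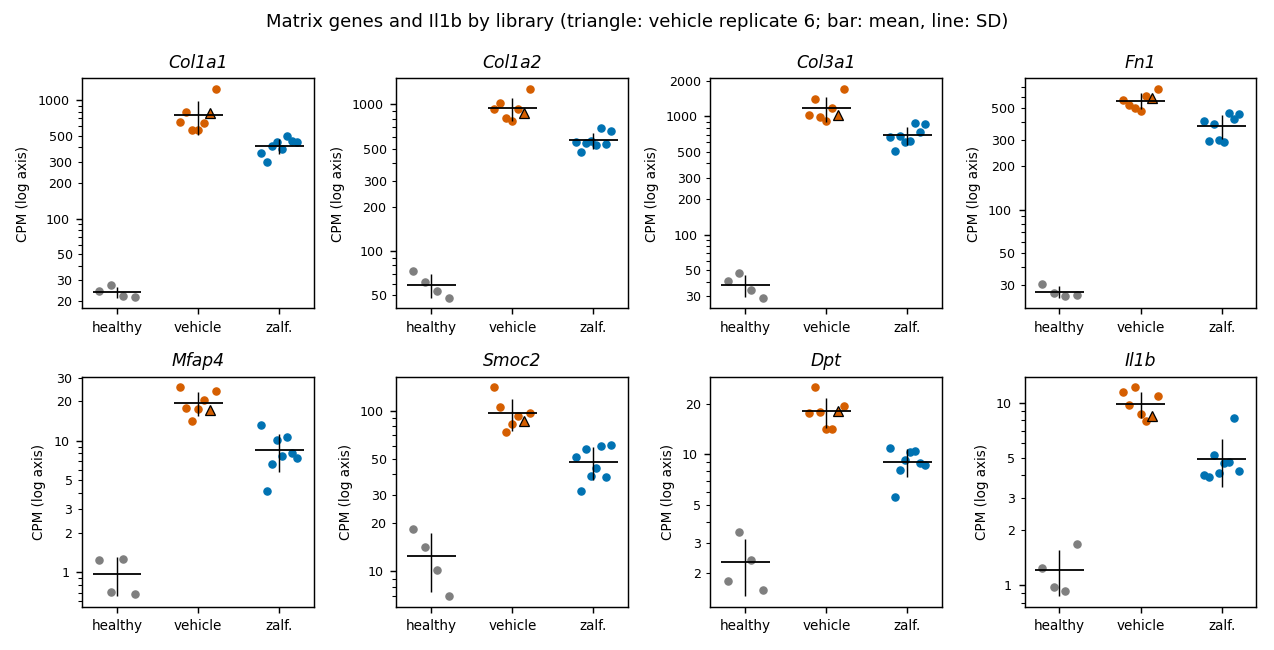
CPM on a log axis for 7 matrix genes and Il1b in each healthy, vehicle and zalfermin library (points; bars are means and lines standard deviations; the triangle is vehicle replicate 6). For Col1a1 the treated libraries end at 498 CPM and the vehicle libraries begin at 560.0 CPM, while healthy libraries reach no more than 27.6 CPM.

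The signals and cells known to stand behind matrix production moved less. Of 16 genes of myofibroblasts and pericytes edgeR called 0, with 5 lower and 0 higher at an unadjusted p under 0.05, while DESeq2 and voom each called 2 lower. Their median was -0.27, and 15 of 16 values were negative. Acta2, the smooth muscle actin of myofibroblasts, was at 120.4, 136 and 296 CPM and 76.7, 110.3 and 223 CPM with wide overlap (log2 fold change -0.36, SE 0.20, adjusted p = 0.408). Vehicle replicate 2 and zalfermin replicate 8 were the highest of their groups. Pdgfrb, the receptor of pericytes and fibroblasts, was at 175, 205 and 242 CPM and 135, 156 and 195 CPM (log2 fold change -0.35, SE 0.10, adjusted p = 0.0688), and fell without vehicle replicate 6, at -0.38 (adjusted p = 0.0391), as it did without vehicle replicate 4 or zalfermin replicate 3. Thy1, a fibroblast surface protein, was at 40.1, 48.7 and 61.7 CPM and 21.7, 31.3 and 50.7 CPM (log2 fold change -0.54, SE 0.16, adjusted p = 0.0819), and passed the test without zalfermin replicate 3 or 6. In whole tissue, fewer cells of a type and less RNA per cell cannot be told apart. Of 18 TGF-beta pathway genes 1 fell, against 0.942% of all genes. This was the ligand Tgfb3, at 11.3, 14.8 and 17.9 CPM and 6.45, 9.20 and 12.3 CPM (log2 fold change -0.65, SE 0.15, adjusted p = 0.0275). Leaving out vehicle replicate 2, 5 or 7 or zalfermin replicate 1, 2 or 5 ended that call (adjusted p up to 0.0711). Tgfb1 itself was at 60.2, 68.6 and 80.2 CPM and 50.2, 58.8 and 75.5 CPM (log2 fold change -0.17, SE 0.10, adjusted p = 0.426). Ltbp2, which encodes a latent TGF-beta binding protein family member, was at 32.7, 41.01 and 51.4 CPM and 17.3, 28.4 and 47.2 CPM, with zalfermin replicate 6 at the top of its group (log2 fold change -0.55, SE 0.16, adjusted p = 0.0911), and passed the test without that library.

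Clock genes changed in both directions. In the molecular clock, the activators BMAL1 (Arntl) and CLOCK drive the period, cryptochrome and Nr1d genes, the Nr1d repressors in turn hold down Arntl and Nfil3, and Dbp and Nfil3 act in opposite ways on shared D-box targets. Arntl (chr7:113207465-113314126, plus strand) was at 15.6, 22.5 and 25.6 CPM with vehicle and 4.60, 9.53 and 18.9 CPM with zalfermin. The groups overlapped only through zalfermin replicate 3, and the difference was 2.16-fold (log2 fold change -1.11, SE 0.22, adjusted p = 0.00895). Nr1d1 (chr11:98767932-98775333, minus strand), the repressor REV-ERB alpha, was at 24.8, 36.6 and 40.7 CPM and 46.3, 63.9 and 80.9 CPM, with all treated libraries above all vehicle libraries (log2 fold change 0.89, SE 0.13, adjusted p = 0.00122). Its relative Nr1d2 was at 30.99, 84.5 and 111 CPM and 96.7, 139 and 169.9 CPM (log2 fold change 0.84, SE 0.19, adjusted p = 0.0212), lost without vehicle replicate 2 or 7 or zalfermin replicate 2 (adjusted p up to 0.0521). Dbp (chr7:45705088-45710203, plus strand), an output factor, was at 9.20, 13.9 and 36.6 CPM and 27.7, 55.5 and 111 CPM (log2 fold change 1.61, SE 0.31, adjusted p = 0.00895). Vehicle replicate 6 was the highest vehicle library for Dbp, and without it the log2 fold change was 1.84 (adjusted p = 0.00202). Nfil3 was at 19.6, 23.2 and 28.3 CPM and 10.2, 15.1 and 18.1 CPM, without overlap (log2 fold change -0.72, SE 0.15, adjusted p = 0.0170). Bhlhe41, a repressor of clock activators, was at 2.87, 4.72 and 4.98 CPM and 6.01, 9.12 and 10.7 CPM, without overlap (log2 fold change 1.07, SE 0.15, adjusted p = 0.00122). Per3, a period gene, was at 11.1, 12.7 and 28.6 CPM and 13.04, 32.4 and 48.4 CPM (log2 fold change 0.91, SE 0.24, adjusted p = 0.0498), a call at the threshold that 11 of the 15 leave-one-out fits lost (adjusted p up to 0.120).

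Leaving out the same library gave -1.18 for Arntl, 0.92 for Nr1d1, 0.99 for Bhlhe41, -0.75 for Nfil3 and 0.69 for Nr1d2, all still called. Counted over the lists, 3 of 15 core clock genes rose and 1 fell, and 2 of 6 output factors rose and 1 fell, against 0.867% of all genes that rose and 0.942% that fell. The counts became 5 and 1, and 3 and 1, without vehicle replicate 6, with Per1 (0.74, adjusted p = 0.0464), Cry2 (0.64, adjusted p = 0.0207) and Tef (0.68, adjusted p = 0.0273) added. Only 1 core clock gene rose without vehicle replicate 2 or 7 or zalfermin replicate 2. Clock (0.07, adjusted p = 0.837), Cry1 (-0.17, adjusted p = 0.663), Rora (0.26, adjusted p = 0.252) and Per2 (0.87, adjusted p = 0.157) were not called, although Per2 was without vehicle replicate 4. Without zalfermin replicate 3 or 6, 4 output factors rose. The time of day at which tissue was taken is not given, and its part in these values was not tested. Reads of Dbp and Nr1d1 cannot be kept apart with certainty from genes on the other strand, since the strand setting of the counting is not given. The partners were not called, with log2 fold changes of 0.01 (adjusted p = 0.969) for Sphk2, beside Dbp, and -0.31 (adjusted p = 0.0546) for Thra, beside Nr1d1.

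The stretches before the start sites of 2 of these genes are shown because they carry the letters that clock factors are known to bind, the D-box TTATGTAA of Dbp and Nfil3 and the E-box CACGTG of BMAL1 and CLOCK. Sequences are from RefSeq on GRCm38.p6, minus strand, 5′ to 3′, with matches in capitals. That of Per3 covers chr4:151044666-151044915 and that of Bhlhe41 chr6:145865559-145865670, the latter ending where the GENCODE gene begins.
Per3: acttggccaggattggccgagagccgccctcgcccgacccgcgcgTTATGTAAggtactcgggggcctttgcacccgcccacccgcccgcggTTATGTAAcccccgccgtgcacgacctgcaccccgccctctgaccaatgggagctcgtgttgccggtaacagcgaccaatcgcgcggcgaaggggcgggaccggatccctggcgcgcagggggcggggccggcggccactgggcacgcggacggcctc
Bhlhe41: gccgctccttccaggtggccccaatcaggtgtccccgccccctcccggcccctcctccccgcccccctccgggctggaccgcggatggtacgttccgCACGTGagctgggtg
Both D-box matches of Per3 begin 205 and 158 bases before the RefSeq start, and the E-box of Bhlhe41 153 bases before it. In the 250 bases before 32851 RefSeq starts, searched on both strands, 0.819% held TTATGTAA, 6.02% held CACGTG and 14% held AGGTCA, the half-site of the Nr1d receptors. AGGTCA occurred once each in the windows of Nr1d2 and Nfil3, and none of the 3 motifs was found in those of Arntl, Nr1d1 and Dbp. A match is a description of the letters and not a measured site.

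**Figure D4:**
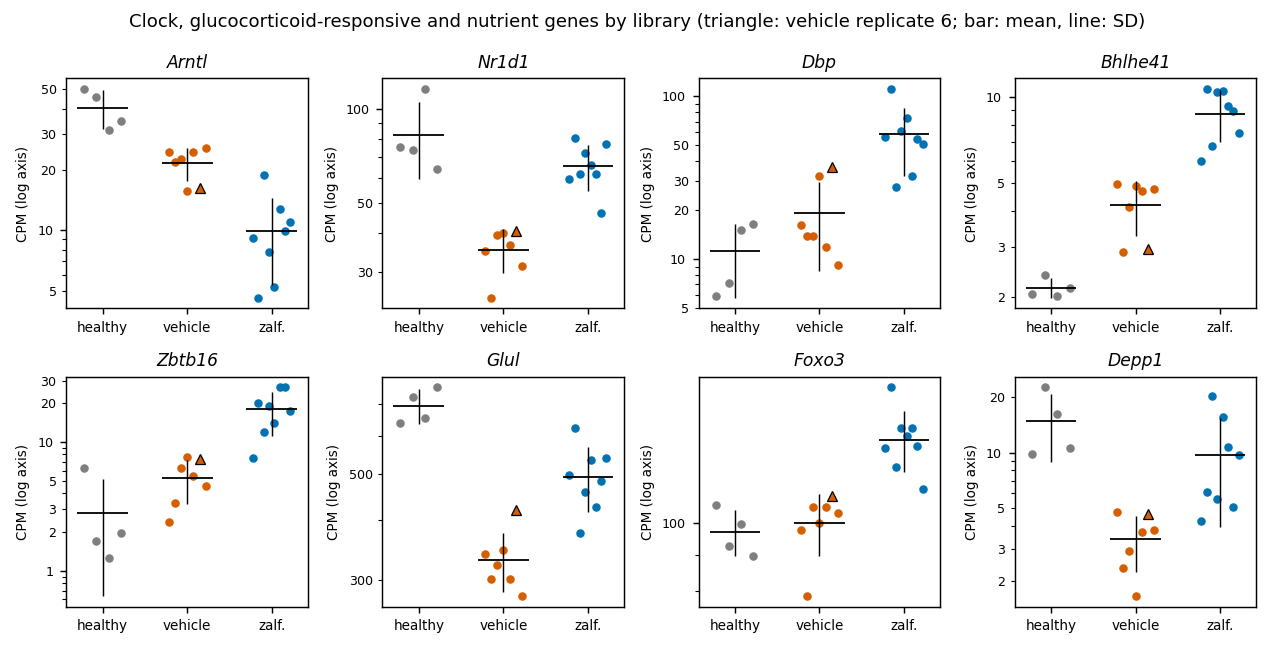
CPM on a log axis for 4 clock genes (Arntl, Nr1d1, Dbp, Bhlhe41), 2 glucocorticoid-responsive genes (Zbtb16, Glul) and 2 nutrient-response genes (Foxo3, Depp1) in each library (points; bars are means and lines standard deviations; the triangle is vehicle replicate 6). The groups of Nr1d1 and Bhlhe41 do not overlap, with Nr1d1 ending at 40.7 CPM with vehicle and beginning at 46.3 CPM with zalfermin.

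Some genes that glucocorticoids are known to induce rose. The list of 20 tested genes also holds the receptor gene Nr3c1, and its member Per1 is counted among the core clock genes too. Of the 20, 5 rose, 0 fell and 15 were not called, against 0.867% of all genes that rose, with a median of 0.43. Of these 20 genes 1 had a negative value at an unadjusted p under 0.05, and DESeq2 and voom called 0 lower. Zbtb16, a transcription factor induced by the glucocorticoid receptor, was at 2.38, 5.40 and 7.62 CPM and 7.53, 18.3 and 26.6 CPM. Only zalfermin replicate 1 reached into the vehicle range, and the difference was 3.38-fold (log2 fold change 1.76, SE 0.30, adjusted p = 0.00371). Fkbp5, a chaperone that limits the receptor, was at 47.5, 64.1 and 122 CPM and 86.6, 119 and 159 CPM (log2 fold change 0.70, SE 0.17, adjusted p = 0.0383), with vehicle replicate 6 the highest vehicle library. Without it the log2 fold change was 0.85 (adjusted p = 0.00304). Glul, glutamine synthetase, was at 278, 322 and 421 CPM and 376, 489 and 624 CPM (log2 fold change 0.58, SE 0.10, adjusted p = 0.00473), Klf9 at 109.6, 169.8 and 199 CPM and 196, 209 and 275 CPM (log2 fold change 0.45, SE 0.10, adjusted p = 0.0212) and Hif3a at 0.134, 0.914 and 1.40 CPM and 1.32, 1.82 and 5.49 CPM (log2 fold change 1.37, SE 0.35, adjusted p = 0.0474). Leaving out a library ended the call of Fkbp5 in 9 fits, of Hif3a in 11 and of Klf9 in 2. The count rose to 9 without vehicle replicate 6, adding Per1, Sgk1 (0.51), Mt1 (0.59) and Mt2 (0.69). It was 2 without vehicle replicate 2 or 7, 3 without vehicle replicate 5 or zalfermin replicate 2, 4, 5 or 7, and 8 without zalfermin replicate 3. Nr3c1, the receptor, was not called (0.14, adjusted p = 0.620), nor was Tsc22d3 (0.39, adjusted p = 0.0614), which rose without zalfermin replicate 3, 6 or 8.

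Among 19 genes of the insulin, FOXO and nutrient response 3 rose and 0 fell, against 0.867% and 0.942% of all genes. Of the 19, 2 were lower at an unadjusted p under 0.05, DESeq2 called 0 lower and voom 1. Igfbp1, an insulin-repressed binding protein of insulin-like growth factors, was at 1.72, 3.72 and 9.30 CPM and 4.24, 10.99 and 18.1 CPM (log2 fold change 1.40, SE 0.32, adjusted p = 0.0253), lost without vehicle replicate 2 or 7 or zalfermin replicate 2 or 5 (adjusted p up to 0.0630). Foxo3, a transcription factor held inactive by insulin signalling, was at 78.7, 104 and 109 CPM and 112, 131 and 156 CPM without overlap (log2 fold change 0.39, SE 0.08, adjusted p = 0.00895). Insr, the insulin receptor, was at 81.1, 107 and 116 CPM and 122, 133 and 154 CPM without overlap (log2 fold change 0.37, SE 0.09, adjusted p = 0.0301), lost without vehicle replicate 2 or 7 or zalfermin replicate 1, 2 or 4 (adjusted p up to 0.0730). The count was 1 without vehicle replicate 2 or 7 or zalfermin replicate 2. Igf1 fell once vehicle replicate 6 was left out, at -0.61 (adjusted p = 0.0273). Depp1, a FOXO target outside the list, was among the largest rises, at 1.66, 3.69 and 4.77 CPM and 4.26, 7.90 and 20.4 CPM (log2 fold change 1.51, SE 0.32, adjusted p = 0.0168). It overlaps Rassf4 on the other strand, which was not called (log2 fold change -0.25, adjusted p = 0.404).

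Some proximal tubule genes known to respond to androgens fell. The list was not sorted by whether androgens raise or lower a gene. Its counts and median therefore do not describe a single direction of androgen response. Of 15 tested in this list 4 fell and 1 rose, against 0.942% and 0.867% of all genes, and 10 were not called, with a median of -0.36. DESeq2 called 5 lower and 2 higher, and voom 5 lower and 1 higher. Slco1a1 (chr6:141907282-141946962, minus strand), an organic anion transporter, was at 32.2, 75.1 and 162 CPM and 16.6, 24.9 and 58.9 CPM (log2 fold change -1.68, SE 0.31, adjusted p = 0.00663). Zalfermin replicate 1 was the highest treated library at 58.9 CPM, with 29.0 CPM next. Kap, kidney androgen-regulated protein, was at 4045, 5135 and 8314 CPM and 1604, 2703 and 5109.5 CPM with overlap (log2 fold change -0.98, SE 0.21, adjusted p = 0.0166). Cyp4a12a, a fatty acid hydroxylase, was at 9.04, 19.1 and 37.8 CPM and 4.09, 7.17 and 14.6 CPM (log2 fold change -1.33, SE 0.31, adjusted p = 0.0261), and Cyp7b1, an oxysterol hydroxylase, at 49.9, 95.7 and 127 CPM and 27.3, 42.4 and 93.4 CPM (log2 fold change -0.91, SE 0.22, adjusted p = 0.0306). Both calls were lost without vehicle replicate 2 or 4 or zalfermin replicate 2, 4, 5 or 7, and that of Cyp7b1 also without vehicle replicate 1 (adjusted p up to 0.0625 and 0.0691), so that the count was then 2 in 6 of these fits. Prlr, the prolactin receptor, was the riser, at 3.41, 15.04 and 23.2 CPM and 20.3, 39.00 and 62.1 CPM (log2 fold change 1.5, SE 0.36, adjusted p = 0.0299), lost without vehicle replicate 2, 4 or 7 or zalfermin replicate 2, 4, 5 or 8 (adjusted p up to 0.0633). The transporter gene Slc22a30 also fell without vehicle replicate 6 (-1.10, adjusted p = 0.0399), as it did without zalfermin replicate 1 or 8. A second riser was called without vehicle replicate 5 or zalfermin replicate 7. Odc1 (-0.40, adjusted p = 0.448) and Slc7a12 (1.03, adjusted p = 0.163) were not called.

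Several other genes whose levels in healthy kidneys were above those of both obstructed groups fell as well. Pzp (chr6:128483567-128526720, minus strand), a secreted protease inhibitor, was at 11.7, 26.5 and 60.4 CPM with vehicle, 1.60, 4.68 and 15.2 CPM with zalfermin and 112 to 149 CPM in healthy kidneys. This was a 6.20-fold difference (log2 fold change -2.63, SE 0.36, adjusted p = 0.00111), and the groups overlapped only because zalfermin replicate 1 lay at 15.2 CPM with 5.48 CPM next. Acsm3 (chr7:119760923-119787513, plus strand), a medium-chain acyl-CoA synthetase of mitochondria, was at 229.7, 333 and 707 CPM and 64.01, 104 and 250.5 CPM (log2 fold change -1.83, SE 0.27, adjusted p = 0.00122), where the same library stood above the other treated ones. Akr1c18, which breaks down progesterone, was at 7.33, 14.1 and 27.7 CPM and 3.86, 6.998 and 13.5 CPM (log2 fold change -1.13, SE 0.27, adjusted p = 0.0275), lost without vehicle replicate 1 or 2 or zalfermin replicate 4, 5 or 7 (adjusted p up to 0.0711). The log2 fold changes without vehicle replicate 6 were -2.44 for Pzp, -1.78 for Acsm3, -1.73 for Slco1a1 and -1.04 for Kap, all still called. Lpl, lipoprotein lipase, was at 246, 285 and 478 CPM and 117, 159 and 203 CPM without overlap (log2 fold change -1.02, SE 0.19, adjusted p = 0.00757). Lpl was the single gene that edgeR called of 14 tested adipocyte genes, whose median was 0.34. The other direction prevailed among the 14, with 10 positive and 4 negative values. At an unadjusted p under 0.05, 5 were higher and 1 lower. DESeq2 called 0 higher and 1 lower, and voom 1 higher and 1 lower. Summed over the list, Lpl included, the vehicle libraries held 425 to 712 CPM and the treated libraries 328 to 641 CPM. Adipoq, which defines fat cells, lay at 0 to 10.8 CPM over the 15 libraries. The part of fat tissue in the Lpl value was not tested.

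**Figure D5:**
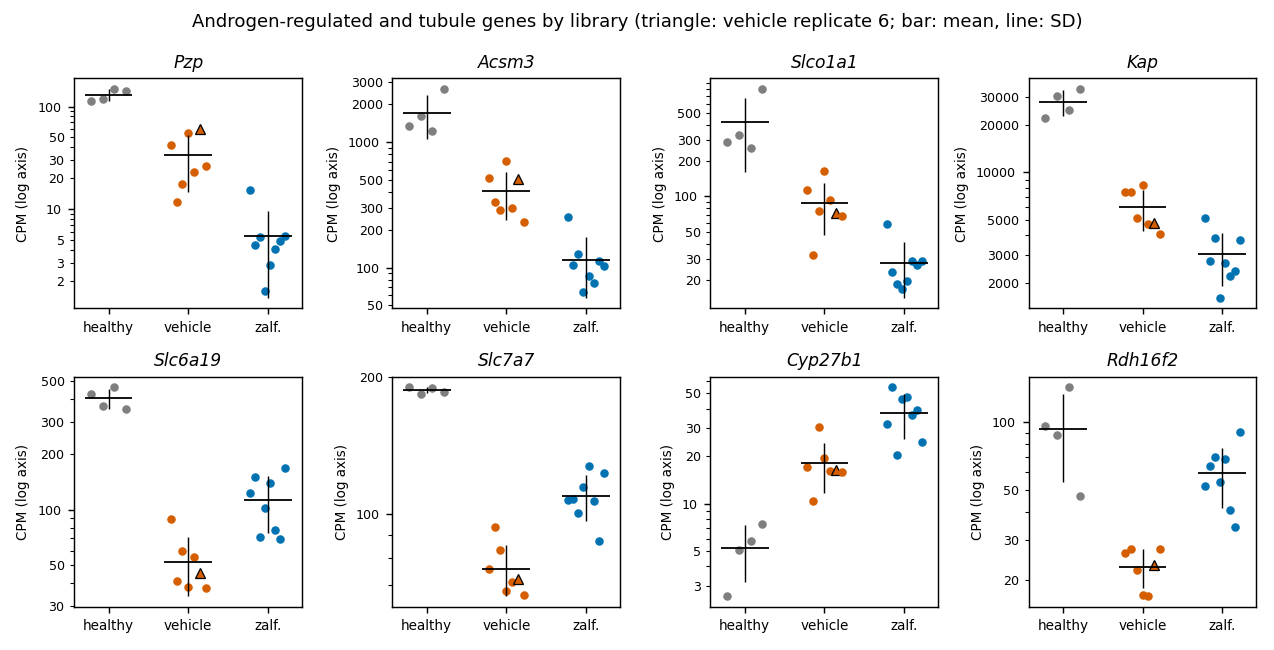
CPM on a log axis for 4 falling genes (Pzp, Acsm3, Slco1a1, Kap) and 4 rising genes (Slc6a19, Slc7a7, Cyp27b1, Rdh16f2) in each library (points; bars are means and lines standard deviations; the triangle is vehicle replicate 6). Zalfermin replicate 1, the first blue point, is the highest treated library for Pzp, Acsm3 and Slco1a1, and the groups of Rdh16f2 do not overlap.

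Other transporters of the same tubule segment rose. Slc6a19, which takes up neutral amino acids from the tubule fluid, was at 37.4, 45.3 and 89.2 CPM and 69.3, 113 and 169 CPM (log2 fold change 1.11, SE 0.21, adjusted p = 0.00689). Vehicle replicate 1, at 89.2 CPM, was the one vehicle library inside the treated range. Slc7a7, which passes cationic amino acids to the blood side, was at 66.4, 72.2 and 93.6 CPM and 87.4, 108 and 128 CPM (log2 fold change 0.53, SE 0.08, adjusted p = 0.00162). Slc5a12, a lactate transporter, was at 37.5, 68.3 and 96.1 CPM and 78.7, 112 and 221 CPM (log2 fold change 0.90, SE 0.20, adjusted p = 0.0231), lost without vehicle replicate 2 or 7 (adjusted p up to 0.0573). With Kap falling, 3 of 24 proximal tubule genes rose and 1 fell, against 0.867% and 0.942% of all genes, and the median was 0.09. The number that rose was 5 without vehicle replicate 6 or without zalfermin replicate 6, and without vehicle replicate 6 the added genes were Slc5a2 (0.44) and Slc22a8 (0.84). Lrp2, the endocytic receptor megalin, was at 569, 882 and 1066 CPM and 763, 883 and 1432 CPM (log2 fold change 0.24, SE 0.15, adjusted p = 0.463). In the same setting Slc6a19 stood at 1.06 and Slc7a7 at 0.51, both still called. Cyp27b1, which makes active vitamin D, was the called gene among 14 for phosphate, vitamin D and calcium, at 10.5, 16.4 and 30.8 CPM and 20.2, 37.99 and 54.7 CPM (log2 fold change 1.06, SE 0.22, adjusted p = 0.0147). Without vehicle replicate 6 or zalfermin replicate 6 that count was 3, the former adding Vdr (0.30) and S100g (0.80), and it was 2 without vehicle replicate 1 or zalfermin replicate 3. Slc2a2, the basolateral glucose transporter, rose as the called gene among 20 for glycolysis and glucose synthesis, at 65.9, 111 and 122 CPM and 118, 149 and 171 CPM (log2 fold change 0.51, SE 0.11, adjusted p = 0.0212), lost without vehicle replicate 2 (adjusted p = 0.0521).

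Further down the nephron values leaned upward but few passed the test. Of 18 collecting duct genes 2 rose, the water channel Aqp4 at 9.84, 11.1 and 16.5 CPM and 12.9, 24.9 and 39.3 CPM (log2 fold change 1.10, SE 0.25, adjusted p = 0.0245) and the transcription factor Tfcp2l1 at 336, 381 and 445 CPM and 437, 481 and 604 CPM (log2 fold change 0.35, SE 0.08, adjusted p = 0.0307). All 18 had positive values, with a median of 0.22, and the share called higher over all genes was 0.867%. Neither was called without vehicle replicate 2 or 7, and 1 of the 2 alone without vehicle replicate 1 or 3 or zalfermin replicate 1, 2, 4 or 5. The count was 6 without vehicle replicate 6, the genes added being the sodium channel subunits Scnn1a and Scnn1b and the intercalated cell genes Atp6v0d2 and Slc4a9. Of 16 thick limb and distal tubule genes edgeR called 0, with 7 higher at an unadjusted p under 0.05 and 2 by DESeq2 and 3 by voom. Slc12a3, the thiazide-sensitive salt transporter, rose without vehicle replicate 6 (0.52, adjusted p = 0.0276), and 2 genes of the list were called without vehicle replicate 1 or zalfermin replicate 3 or 6. Umod was at 2767, 3366 and 4659.8 CPM and 3103, 3495 and 4119 CPM (log2 fold change 0.04, SE 0.11, adjusted p = 0.890). Of 14 podocyte genes Wt1, a podocyte transcription factor, rose (log2 fold change 0.43, SE 0.10, adjusted p = 0.0268), lost without vehicle replicate 2 or 7 or zalfermin replicate 4, 5 or 7 (adjusted p up to 0.0633), and Nphs1, nephrin, joined it without vehicle replicate 6 (0.36, adjusted p = 0.0331).

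Markers of tubule injury did not pass the test with 1 exception. Havcr1, kidney injury molecule, was at 725, 1370.3 and 1538 CPM and 1238, 1363 and 1937 CPM (log2 fold change 0.24, SE 0.19, adjusted p = 0.567), and Lcn2, a lipocalin released by injured tubules, at 269, 367 and 545 CPM and 218, 355 and 467 CPM (log2 fold change -0.06, SE 0.17, adjusted p = 0.893), a value whose sign changed with the setting. Both genes overlapped widely between the groups. Krt20, a keratin that injured tubules are known to express, rose, at 42.7, 56.7 and 70.02 CPM and 51.04, 90.5 and 124 CPM (log2 fold change 0.69, SE 0.14, adjusted p = 0.0108). It was the single called gene among 19, whose median was -0.01. Hbegf was at 33.96, 44.4 and 59.6 CPM and 26.8, 33.1 and 48.7 CPM (log2 fold change -0.39, SE 0.13, adjusted p = 0.131).

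Several enzyme genes of drug, steroid and retinoid metabolism rose, whereas the enzyme genes Akr1c18, Cyp7b1 and Cyp4a12a, given above, fell. Ugt1a2 (chr1:88200601-88218997, plus strand), a glucuronosyltransferase, was at 0, 0.701 and 1.05 CPM and 2.05, 7.26 and 21.7 CPM without overlap (log2 fold change 3.79, SE 0.54, adjusted p = 0.00122). Ugt1a10 (chr1:88055388-88219004, plus strand) was at 1.54, 3.33 and 4.05 CPM and 7.39, 11.9 and 20.2 CPM without overlap (log2 fold change 2.05, SE 0.26, adjusted p = 6.34e-04). Both are uncertain as single genes, since genes of the Ugt1a locus share their last exons and the counting rule for shared reads is not given. Ugt1a1, of the same locus, had a log2 fold change of 1.49 (adjusted p = 0.0275), lost without vehicle replicate 2 or 7 or zalfermin replicate 2, 4 or 8 (adjusted p up to 0.0699), and was looked at because of that locus. Ugt1a7c had a log2 fold change of 0.31 (adjusted p = 0.0752) and Ugt1a6a one of 0.24 (adjusted p = 0.766). Rdh16f2, a retinol dehydrogenase, was at 16.9, 23.2 and 27.5 CPM and 34.5, 59.3 and 90.4 CPM without overlap (log2 fold change 1.37, SE 0.21, adjusted p = 0.00122). Of the cytochromes P450, Cyp2d26 was at 11.1, 13.7 and 22.8 CPM and 19.2, 36.01 and 66.1 CPM (log2 fold change 1.38, SE 0.20, adjusted p = 0.00122) and its near relative Cyp2d12 at 1.59, 4.59 and 9.75 CPM and 5.05, 11.7 and 21.6 CPM (log2 fold change 1.40, SE 0.31, adjusted p = 0.0231). The Cyp2d12 call was lost without vehicle replicate 7 or zalfermin replicate 5 (adjusted p up to 0.0529), and reads can be split between such paralogs. Kynu, kynureninase, of tryptophan breakdown, was at 1.81, 7.18 and 9.39 CPM and 10.9, 15.1 and 24.01 CPM without overlap (log2 fold change 1.23, SE 0.28, adjusted p = 0.0237), lost without vehicle replicate 7 or zalfermin replicate 2 (adjusted p up to 0.0565). With vehicle replicate 6 left out, the values were 3.56 for Ugt1a2, 1.99 for Ugt1a10, 1.36 for Rdh16f2, 1.36 for Cyp2d26 and 1.05 for Kynu, all still called. Among 20 antioxidant genes 2 rose, against 0.867% of all genes. They were the glutathione transferase Gsta2, at 70.3, 110.0 and 153 CPM and 140.2, 169 and 209 CPM (log2 fold change 0.66, SE 0.14, adjusted p = 0.0163), and the secreted glutathione peroxidase Gpx3, at 5344, 6491 and 8733 CPM and 7751, 9929 and 12918 CPM (log2 fold change 0.54, SE 0.13, adjusted p = 0.0314). Gpx3 was no longer called without vehicle replicate 1, 3, 4, 5 or 7 or zalfermin replicate 2, 3, 5 or 8 (adjusted p up to 0.0816).

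Those listed immune genes that edgeR called over all libraries fell. Il1b, the inflammatory cytokine interleukin 1 beta, was at 7.93, 9.67 and 12.2 CPM and 3.91, 4.44 and 8.26 CPM (log2 fold change -1.02, SE 0.16, adjusted p = 0.00143). Only zalfermin replicate 7 reached into the vehicle range, at 8.26 CPM with 5.16 CPM next. Il1b was the single gene that edgeR called among 24 for cytokines, chemokines and complement, and without zalfermin replicate 6 Ccl5 and C4b also fell. Of these 24 genes DESeq2 called 1 higher and 2 lower, and voom 2 higher and 6 lower. At an unadjusted p under 0.05 in edgeR, 3 were higher and 6 lower. C3, the central complement protein, was at 1739, 2063 and 2291 CPM and 1770.3, 2623 and 2999.7 CPM (log2 fold change 0.36, SE 0.10, adjusted p = 0.0828), and rose without zalfermin replicate 8. Of 20 interferon-response genes 5 fell and 0 rose, against 0.942% of all genes that fell, with a median of -0.23. None of the 20 was higher at an unadjusted p under 0.05, nor by DESeq2 or voom. The 5 that fell were Irf7, a regulator of interferon genes, at 48.2, 55.3 and 59.1 CPM and 29.9, 37.7 and 48.5 CPM (log2 fold change -0.48, SE 0.10, adjusted p = 0.0139), Isg15, a ubiquitin-like protein, at 11.2, 12.9 and 20.8 CPM and 6.71, 8.27 and 11.5 CPM (log2 fold change -0.66, SE 0.14, adjusted p = 0.0158), Oas1a (-0.56, adjusted p = 0.0212), Oasl2 (-0.38, adjusted p = 0.0421) and Bst2 (-0.41, adjusted p = 0.0466). The number was 2 without vehicle replicate 7 and 3 without vehicle replicate 1, 2, 3 or 4 or zalfermin replicate 2, 3, 4, 5, 7 or 8. Il1b was at -1.07, Irf7 at -0.47 and Isg15 at -0.54 on the log2 scale without vehicle replicate 6, all still called. Ifit1 (-0.24, adjusted p = 0.460) was not called. Of 9 MHC class II genes 1 fell, against 0.942% of all genes. This was H2-Eb1, at 534, 585 and 630.5 CPM and 360.1, 423 and 661 CPM (log2 fold change -0.42, SE 0.11, adjusted p = 0.0486), a call kept in 3 of 15 leave-one-out fits. Without zalfermin replicate 6, the highest library for H2-Eb1 and Cd74, 5 of the 9 fell, and 2 without vehicle replicate 6.

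Markers of immune cells themselves did not pass the test. Of 18 macrophage genes edgeR called 0, with 5 lower and 1 higher at an unadjusted p under 0.05, 0 by DESeq2 and 1 by voom. Adgre1, the F4/80 antigen, was at 56.2, 71.04 and 88.4 CPM and 45.5, 58.5 and 87.4 CPM (log2 fold change -0.21, SE 0.13, adjusted p = 0.465), and Lyz2, lysozyme, at 389, 457 and 489 CPM and 279, 327 and 491 CPM (log2 fold change -0.35, SE 0.11, adjusted p = 0.123), called lower without zalfermin replicate 4. Without zalfermin replicate 6 Ms4a7 fell, and without vehicle replicate 7 1 macrophage gene rose. Of 20 genes of T, NK and B cells edgeR called 0, with 10 lower at an unadjusted p under 0.05, 0 by DESeq2 and 7 by voom, and 3 fell without zalfermin replicate 6. All 20 had negative values, with a median of -0.52. Summed over the list, vehicle libraries held 115 to 263 CPM and treated libraries 115 to 186 CPM. The lowest vehicle sum was that of replicate 6, and the other vehicle libraries held 140 to 263 CPM. Igkc, an antibody light chain, was at 12.5, 19.3 and 49.5 CPM and 5.06, 8.74 and 26.7 CPM (log2 fold change -0.98, SE 0.34, adjusted p = 0.149). The part of immune cell number in the falls of Il1b and the interferon genes was not tested. Of 15 endothelial genes edgeR, DESeq2 and voom called 0, with 0 at an unadjusted p under 0.05.

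The receptors and known feedback genes of the FGF pathway showed no called gene. Fgfr1 was at 83.7, 85.4 and 103 CPM and 79.1, 85.7 and 98.1 CPM (log2 fold change -0.04, SE 0.07, adjusted p = 0.809), with groups that overlapped almost wholly. Fgfr2 was at 30.3, 35.6 and 37.3 CPM and 36.9, 41.1 and 46.7 CPM (log2 fold change 0.26, SE 0.08, adjusted p = 0.132) and Fgfr3 at 25.7, 30.4 and 39.9 CPM and 19.5, 26.2 and 33.6 CPM (log2 fold change -0.26, SE 0.11, adjusted p = 0.290). Klb had 16 reads over 5 of 7 vehicle libraries and 10 over 4 of 8 treated libraries (two-sided exact permutation test of mean CPM, p = 0.348, 2 genes so tested). Fgf21 itself had 20 reads over 6 of 7 vehicle libraries and 2 over 2 of 8 treated libraries (exact p = 0.0124, adjusted over the 2 genes 0.0249). Without vehicle replicate 2, 4, 6 or 7 the adjusted value for Fgf21 was 0.0520 to 0.0533. Both genes had 0 reads in healthy libraries. Of 8 tested receptor and ligand genes edgeR, DESeq2 and voom called 0, with 1 higher and 1 lower at an unadjusted p under 0.05. Of 19 feedback genes of FGF receptor and ERK signalling, which report activity of the pathway in many tissues, edgeR and voom called 0 and DESeq2 1, with 1 higher and 1 lower at an unadjusted p under 0.05. Etv1, one of these, was at 4.75, 9.32 and 10.03 CPM and 10.4, 10.9 and 13.2 CPM without overlap (log2 fold change 0.45, SE 0.13, adjusted p = 0.0770), and Phlda1 at 15.7, 18.5 and 24.3 CPM and 8.23, 14.8 and 19.9 CPM (log2 fold change -0.46, SE 0.15, adjusted p = 0.132).

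Energy metabolism showed few called genes. Of 31 PPAR target, fatty acid oxidation and ketogenesis genes edgeR called only Cyp4a12a, with 6 higher and 4 lower at an unadjusted p under 0.05. DESeq2 called 2 higher and 2 lower, and voom 1 higher and 1 lower. Ppargc1a, a coactivator of mitochondrial genes, was at 38.9, 46.9 and 61.8 CPM and 52.4, 65.9 and 78.8 CPM (log2 fold change 0.41, SE 0.11, adjusted p = 0.0692), and was called without vehicle replicate 1 or zalfermin replicate 6. Ppara rose without vehicle replicate 6 (0.63, adjusted p = 0.0193). Of 23 nuclear genes of oxidative phosphorylation and the citric acid cycle edgeR, DESeq2 and voom called 0, with 1 at an unadjusted p under 0.05. Of 24 sterol and fatty acid synthesis genes edgeR and DESeq2 called 0 and voom 1, with 4 at an unadjusted p under 0.05, and 1 fell without zalfermin replicate 8. Elovl6, a fatty acid elongase, was at 21.2, 32.6 and 35.7 CPM and 35.2, 38.9 and 45.3 CPM (log2 fold change 0.32, SE 0.11, adjusted p = 0.159). Of 7 tested mitochondrially encoded genes edgeR, DESeq2 and voom called 0, with 0 at an unadjusted p under 0.05. mt-Co1, a subunit of the respiratory chain, was at 2769, 8074 and 10132 CPM and 7530.2, 9416 and 11387 CPM (log2 fold change 0.28, SE 0.18, adjusted p = 0.465), and its lowest vehicle value was that of replicate 6.

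Stress, growth and vascular tone genes moved singly. Ace, the angiotensin-converting enzyme, fell, at 117, 127 and 262 CPM and 59.7, 92.5 and 141 CPM (log2 fold change -0.76, SE 0.17, adjusted p = 0.0203), with vehicle replicate 6 the highest at 262 CPM. Without it the log2 fold change was -0.61 (adjusted p = 0.0192). Atf3, a stress-induced factor, fell, at 34.7, 41.4 and 54.5 CPM and 24.4, 32.7 and 38.8 CPM (log2 fold change -0.47, SE 0.12, adjusted p = 0.0474), lost in 10 of 15 leave-one-out fits (adjusted p up to 0.109). It was the called gene of 22 for ER stress, to which Atf4 (-0.41, adjusted p = 0.0469) and Herpud1 (0.59, adjusted p = 0.0426) were added without vehicle replicate 6. Among immediate early genes Klf4 rose, at 23.8, 30.05 and 32.9 CPM and 28.9, 41.5 and 54.2 CPM (log2 fold change 0.52, SE 0.11, adjusted p = 0.0163), and Fosb fell, at 1.33, 4.50 and 23.8 CPM and 1.19, 1.75 and 3.07 CPM (log2 fold change -1.85, SE 0.44, adjusted p = 0.0311), with vehicle replicate 1 the highest and the call lost without vehicle replicate 1 or 3 or zalfermin replicate 1, 2, 3, 4, 5 or 8 (adjusted p up to 0.0830). Of 22 cell cycle genes edgeR, DESeq2 and voom called 0, with 2 lower at an unadjusted p under 0.05. Of 17 cell death genes edgeR and DESeq2 called 0 and voom 1, with 0 at an unadjusted p under 0.05. Mcl1, a survival factor, fell without vehicle replicate 6 (-0.20, adjusted p = 0.0284).

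Some calls turned on vehicle replicate 6. Esrrb, an orphan nuclear receptor, was at 7.91, 9.73 and 21.7 CPM and 13.6, 15.8 and 22.4 CPM. Its vehicle libraries lay at or under 12.8 CPM apart from replicate 6, and the log2 fold change went from 0.58 (adjusted p = 0.120) to 0.80 (adjusted p = 0.00425) without it. Prodh, a mitochondrial proline oxidase, went from 0.31 (adjusted p = 0.173) to 0.43 (adjusted p = 0.00437), Scnn1a, of the epithelial sodium channel, from 0.31 (adjusted p = 0.279) to 0.47 (adjusted p = 0.00471), and the potassium channel gene Kcnq1 from 0.26 (adjusted p = 0.236) to 0.37 (adjusted p = 0.00563). In each of these 4 genes vehicle replicate 6 was the highest vehicle library. Slc27a3, an acyl-CoA synthetase family member, was lowest in that library and went from -0.40 (adjusted p = 0.121) to -0.51 (adjusted p = 0.00740). Genes lost without it were close to the threshold. Enpp2, autotaxin, went from 0.41 (adjusted p = 0.0451) to 0.37 (adjusted p = 0.0535), Arhgef3 from 0.33 (adjusted p = 0.0397) to 0.29 (adjusted p = 0.0501), F13b from 0.67 (adjusted p = 0.0409) to 0.58 (adjusted p = 0.0563), Auts2 from 0.40 (adjusted p = 0.0446) to 0.34 (adjusted p = 0.0600), Mttp from 0.42 (adjusted p = 0.0474) to 0.38 (adjusted p = 0.0620) and the arachidonic acid epoxygenase gene Cyp2c23 from 0.63 (adjusted p = 0.0475) to 0.56 (adjusted p = 0.0613). Each of these 6 was also lost in at least 10 other leave-one-out fits. For none of these 11 genes did the sign change.

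Lists for tissues and features that a kidney sample could carry held no called gene by edgeR or DESeq2. These were urothelium (10 tested, median log2 fold change -0.24), blood (7, -0.59 and 0.21 without vehicle replicate 6), skeletal muscle, adrenal cortex and liver (8, -0.04), cytosolic ribosome (28, -0.13) and sex-linked genes (4, 0.23). None of their genes had an unadjusted p under 0.05, and voom called 0 as well. The summed level of the sex-linked genes was 72.3 CPM in vehicle replicate 6 and 188 to 239 CPM in the other vehicle libraries. Hba-a2, an alpha globin, was at 8.34, 13.6 and 76.1 CPM and 7.67, 12.5 and 23.98 CPM (log2 fold change -0.71, SE 0.38, adjusted p = 0.394), and Hbb-bt, a beta globin, at 5.13, 9.74 and 54.2 CPM and 4.64, 6.82 and 22.4 CPM (log2 fold change -0.77, SE 0.44, adjusted p = 0.417). The highest vehicle value of both was that of replicate 6, without which the log2 fold changes were 0.06 and 0.02, and reads can be split between such near-identical globin genes.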

How the data were processed

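Kidney RNA libraries were compared, 7 from vehicle-treated and 8 from zalfermin-treated obstructed kidneys, with 4 healthy libraries in the same fit. Per the labels' protocols, RNA was extracted with a NucleoSpin kit, the NEBNext Ultra II Directional kit was used for the libraries, and sequencing was on a NextSeq instrument. Per the submitters' processing notes, STAR 2.7.0f and the GRCm38 genome were used. Not given in the sources used here were the counting program, strand setting and annotation. The authors deposited 1 table of whole-number read counts, not normalized, for 55536 genes, all of which matched GENCODE M21. Directional libraries counted without strand would merge overlapping genes, and reads of near-identical genes can be lost or split.

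Genes were kept by edgeR's filterByExpr (count of 10, total of 15; 16026 genes), scaled by TMM and tested with edgeR 4.0.16 (R 4.3.3) by the quasi-likelihood F test with 1 coefficient per group over 19 libraries and Benjamini-Hochberg adjustment. The test was tried on simulated counts, in which no library was made outlying as vehicle replicate 6 is, and the outcome is not reported here. Fgf21 and Klb, under the filter, were tested by a two-sided exact permutation test of mean CPM. Libraries of 12209122 to 14844103 counts limit genes of low level, and their number limits the precision. Alternatives were DESeq2 1.42.0, voom with quality weights in limma 3.58.1, other scalings and filters, a 2-group fit, a robust fit and each library left out. DESeq2, voom, the 2-group fit and the RLE scaling without vehicle replicate 6 were added after seeing the data.

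The members and the 39 gene lists were chosen with earlier results of these data known. Named genes were the 12 largest called rises and 12 largest called falls (mean of at least 5 CPM, settled symbol, at least 7 of 8 treated libraries beyond the vehicle median), the 6 smallest p among genes called only without and only with vehicle replicate 6, 13 sentinel genes and the 2 smallest p of each list. Some genes named by this rule are not reported here. Other list members are named to account for a list's count. Genes overlapping a named gene were looked up after its values were seen. Promoter sequences are RefSeq's, on GRCm38.p6.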

Additional observations from a re-analysis of the deposited data

Results flagged for a closer look

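In 36 of 258 groups checked, a library stood apart from the rest of its group by Dixon's criterion, which chance alone meets in about 1 in 20 groups. Vehicle replicate 6 accounted for 13. Of the genes below, Esrrb, Prodh, Scnn1a, Kcnq1 and Slc27a3 were named because they were called only without that library. Their flags were thus partly fixed by the choice of genes, and the tally does not measure how far the library stood apart. It was low in genes detected (19788) and in mitochondrially encoded share (1.10%). Among genes it was high for Esrrb (21.7 CPM), Prodh (106.9), Scnn1a (122.9), Kcnq1 (47.7), Isg15 (20.8), Hba-a2 (76.1) and Hbb-bt (54.2). It was low for Slc27a3 (6.69), mt-Co1 (2769), Elovl6 (21.2) and the Y-linked Eif2s3y (24.8).

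Vehicle replicate 1 was high for Cyp2d12 (9.75 CPM), Cyp2d26 (22.8), Slc6a19 (89.2) and Fosb (23.8). Vehicle replicate 3 was high for Igfbp1 (9.30 CPM), vehicle replicate 7 for Col1a1 (1244) and vehicle replicate 2 for Acta2 (296), while vehicle replicate 2 was low for Foxo3 (78.7).

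Of the treated libraries, zalfermin replicate 1 was high for Pzp (15.2 CPM), Acsm3 (250.5), Slco1a1 (58.9) and the pseudogene Gm6300 (1.75), all of which fell with the drug. Zalfermin replicate 6 was high for Col6a2 (80.9 CPM), Ltbp2 (47.2), H2-Eb1 (661) and Cd74 (1585). Zalfermin replicate 7 was high for Il1b (8.26 CPM), Hba-a2 (24.0) and Hbb-bt (22.5). In zalfermin replicate 8 Cyp2c23 (28.4 CPM) and Acta2 (223) were high, Calb1 stood at 220.9 CPM and Stard4 at 107.7 CPM.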

How the results depend on the processing

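The number of called genes (290) stayed within 1.5 times under RLE and upper-quartile scaling, both filters, the 2-group fit and the robust fit. It was 602 with DESeq2 (260 higher, 342 lower) and 1148 with voom (502 and 646). Of the 290 genes all were called by DESeq2 and 285 by voom. Leaving out 1 library gave 153 to 517 genes, 71 to 242 higher and 73 to 275 lower. Without vehicle replicate 6 (517 genes, 242 and 275), DESeq2 gave 810 (349 and 461), voom 1141 (417 and 724), the 2-group fit 578 (233 and 345) and RLE scaling 503 (218 and 285), combinations chosen after seeing the data. The share of calls that were higher was 47.9%, and 35.5% under upper-quartile scaling, which moved the median of all tested genes from 0.01 to -0.02. The cause of these differences was not tested. Of 3398 recomputed values of 126 named genes 3023 kept direction and side of the threshold, 241 lost the call, 121 gained it and 13 changed sign, none of a called gene. The sign changes were those of Lcn2 (0.0401 with voom, 0.0378 with voom and without vehicle replicate 6; -0.128 to 0.0504 on leaving out 1 library), Umod (-0.0077 to 0.113 likewise), Hba-a2 (-0.882 to 0.0649; without vehicle replicate 6, 0.0592 by DESeq2 and the 2-group fit and 0.0566 by RLE scaling) and Hbb-bt (-1.13 to 0.0211; there 0.0173 by DESeq2, 0.0166 by the 2-group fit and 0.0133 by RLE scaling). The mean CPM difference of Fgf21 was negative whichever library was left out, and its adjusted p was 0.00666 to 0.0533. No paired analysis was possible because no label gives a replicate number, and those used here come from accession order. Depth limits genes such as Klb, with 16 and 10 reads in all.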

Other observations

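Gene families were gathered by symbol after the values were seen, and each is described against 0.867% of all tested genes that rose and 0.942% that fell. Of 37 tested collagen genes 12 fell and 0 rose (DESeq2 and voom also 0 higher, with 0 higher at an unadjusted p under 0.05), with a median log2 fold change of -0.32. Of 29 genes of the Adam and Adamts metalloproteases 3 fell and 0 rose (0 higher at an unadjusted p under 0.05, by DESeq2 or by voom). Adam12, a membrane protease, was at 28.2, 32.8 and 38.1 CPM with vehicle and 11.5, 20.5 and 25.3 CPM with zalfermin without overlap (log2 fold change -0.77, SE 0.14, adjusted p = 0.00689), against 1.38 to 2.95 CPM in healthy kidneys. Adamts2, which trims the ends of procollagen, was at 45.03, 53.5 and 73.8 CPM and 29.7, 39.9 and 49.02 CPM (log2 fold change -0.55, SE 0.12, adjusted p = 0.0212), lost without vehicle replicate 2 or 7 (adjusted p up to 0.0581). The call of Adamts17 (-1.59, adjusted p = 0.0390) was lost in 9 of 15 leave-one-out fits.

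Of 14 tested Ugt genes 4 rose and 0 fell (0 lower at an unadjusted p under 0.05, by DESeq2 or by voom), 3 of them in the shared Ugt1a locus. Ugt2b34, of another locus, was at 7.90, 14.97 and 20.7 CPM and 16.4, 24.9 and 29.5 CPM (log2 fold change 0.75, SE 0.16, adjusted p = 0.0166). Cytochrome P450 genes moved in both directions: of 42 tested, 4 rose and 2 fell, with a median of 0.10. At an unadjusted p under 0.05, 10 were higher and 5 lower. DESeq2 called 5 higher and 2 lower, and voom 7 higher and 2 lower. Leaving out 1 library gave 2 to 4 higher and 0 to 2 lower. Of 276 Slc transporter genes 11 rose and 1 fell, and 17 rose and 3 fell without vehicle replicate 6. The number that rose was 6 without vehicle replicate 2 or 7 and 7 without zalfermin replicate 2, 4, 5 or 8. Slc7a9, an amino acid transporter of the proximal tubule brush border, was at 51.1, 58.6 and 67.9 CPM and 65.1, 79.2 and 89.8 CPM (log2 fold change 0.42, SE 0.07, adjusted p = 0.00543). Of 93 Rpl and Rps genes for ribosomal proteins edgeR and DESeq2 called 0, voom called 1 lower, and 6 were lower at an unadjusted p under 0.05.

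The largest fall of any called gene was that of Gm6300, an unprocessed pseudogene of chromosome 3, which its provisional symbol kept out of the naming rule. It was at 3.22, 9.01 and 27.1 CPM with vehicle, 0, 0.114 and 1.75 CPM with zalfermin and 36.2 to 199.8 CPM in healthy kidneys, and the obstructed groups did not overlap (log2 fold change -5.14, SE 0.66, adjusted p = 6.34e-04). Reads of a pseudogene can come from its parent gene, which was not looked for here, and the size of a fold near 0 depends on the prior count.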
